A study of Mus musculus with 7 samples.

Results

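Lyve1, Timd4, Folr2, Cd163, Mrc1, F13a1, Cbr2, Gas6, Pf4 and Vsig4, commonly used as marker genes of the macrophages that reside in the heart, were followed in the myocardium of mice with and without myocardial infarction. These 10 genes were taken by name from a table of 56980 genes, and each was found in it once. Total RNA of myocardial tissue was sequenced from wild-type (WT) C57BL/6J males, an inbred strain widely used in laboratories, bought at 8 weeks of age. In 3 of them the left coronary artery had been ligated (MI mice), and the other 4 were sham-operated, that is, they went through the same surgery without ligation. By the methods of the study the tissue was collected 4 days after infarction. The study calls the tissue of the MI mice ischemic, and its methods name neither the place in the heart from which tissue was cut nor any pooling of animals. Each sample is 1 library. Values are FPKM, the fragments counted on a gene relative to its length and to the size of the library. This unit was read from the steps of the values, and the fragment numbers and counting intervals given here rest on it. Depths ranged from 19977713 to 23610870 fragments. Cardiomyocyte genes were high in every heart, with Myh6, the main myosin heavy chain gene of the adult mouse heart, between 1908 and 4086 FPKM.

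The healthy heart holds a population of macrophages that is seeded before birth and largely maintains itself by local division. These cells sit along vessels and between cardiomyocytes, take up dying cells and debris, and bear scavenger and phagocytic receptors, several of which are encoded by the genes described here. After infarction, blood monocytes enter the tissue in large numbers and become macrophages that share pan-macrophage genes such as Csf1r and Adgre1 with the resident cells but carry less of the resident markers. Several of the 10 genes are not confined to macrophages: Lyve1 is also a marker of lymphatic endothelium, Pf4 of platelets and megakaryocytes, and Gas6 is expressed by fibroblasts, smooth muscle and endothelium. In bulk tissue, fewer cells of a type and less RNA per cell cannot be told apart, and each value below is a level in the whole tissue.

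Timd4 and Vsig4 stood at opposite ends of the 10 genes in the ratio of the MI mean to the sham mean of FPKM, and the stretch of 250 bases upstream of the start of each is shown for that reason, from RefSeq on GRCm38.p6. Capitals mark matches, on either strand, to GAGGAA, the core bound by the macrophage factor PU.1, and to TGCTGA, the short site recognised by Maf factors, whose reverse complement reads TCAGCA. The Timd4 stretch is chr11:46810549-46810798 on the plus strand, and the Vsig4 stretch is chrX:96293439-96293688 on the minus strand. Each is written 5′ to 3′ on the strand of its gene.
Timd4: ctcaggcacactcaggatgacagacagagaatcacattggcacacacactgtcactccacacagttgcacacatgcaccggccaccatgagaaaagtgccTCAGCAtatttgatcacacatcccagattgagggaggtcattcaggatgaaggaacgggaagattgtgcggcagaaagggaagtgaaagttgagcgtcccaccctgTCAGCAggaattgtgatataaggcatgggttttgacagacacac
Vsig4: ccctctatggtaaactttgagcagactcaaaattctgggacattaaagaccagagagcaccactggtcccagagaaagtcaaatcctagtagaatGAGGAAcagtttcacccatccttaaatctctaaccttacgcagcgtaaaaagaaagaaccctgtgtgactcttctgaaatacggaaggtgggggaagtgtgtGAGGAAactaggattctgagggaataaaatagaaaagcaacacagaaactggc
The Timd4 stretch held 2 matches to the Maf site and 0 to the PU.1 core, and the Vsig4 stretch held 2 to the PU.1 core and 0 to the Maf site. A promoter was found for 9 of the 10 genes, all but Lyve1, with 11 starts in all. The PU.1 core was upstream of 5 of the 11 starts, those of Mrc1, Pf4, Cbr2 and Vsig4 and 1 of F13a1, and of 23.3% of all 32851 mouse promoters over the same length. The Maf site was upstream of 3 of the 11, that of Timd4 and both of Folr2, and of 16.1% of all. A match describes the letters of the window and not a bound site.

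In sham-operated mice the 10 genes spanned a wide range of levels per length. Gas6, which encodes a secreted ligand that links exposed phosphatidylserine to the receptors Tyro3, Axl and Mertk, was the highest at 62.0 ± 2.90 FPKM (SD, n = 4), above every pan-macrophage gene listed here except Lyz2. Cbr2 (10.7 ± 1.08), Lyve1 (9.04 ± 3.13), Pf4 (8.18 ± 0.604) and F13a1 (7.32 ± 1.35) came next, and the ranges of neighbours in this order overlapped. Mrc1 (5.24 ± 0.474), Cd163 (3.95 ± 0.424), Folr2 (2.82 ± 0.334), Timd4 (1.24 ± 0.335) and Vsig4 (0.449 ± 0.0320) followed, and here the range of each lay apart from that of the next. In MI mice the order of the means (n = 3) was Gas6 (151 ± 72.8 FPKM), Pf4 (12.5 ± 6.21), Cbr2 (11.0 ± 0.955), Mrc1 (10.9 ± 4.93), Lyve1 (10.1 ± 0.745), F13a1 (9.20 ± 1.62), Cd163 (5.02 ± 0.644), Folr2 (3.55 ± 0.853), Vsig4 (1.77 ± 1.3) and Timd4 (0.847 ± 0.214). Vsig4 thus stood above Timd4 in the MI mice by its mean, with overlapping ranges, and below it in the sham-operated mice without overlap.

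The MI hearts were not alike, and this bears on every value that follows. MI replicate 2 lay close to the sham-operated mice: mitochondrial genes held 28.2% of its fragments, against 26.5% to 27.4% in the sham-operated mice and 13.6% and 14.9% in MI replicates 1 and 3. The pan-macrophage level, the mean log2(FPKM + 0.1) of 12 genes that macrophages of any origin express, was 2.87, 2.85, 2.57 and 2.84 in sham replicates 1 to 4 and 5.14, 2.94 and 4.91 in MI replicates 1 to 3. Results are therefore given with and without MI replicate 2, whose label was kept. The median gene was 0.21 higher in MI mice on the log2(FPKM + 1) scale, and changes relative to it are given where they matter. With 35 ways to split 7 hearts into 3 and 4, an exact two-sided permutation test cannot go below p = 0.0571.

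Across all 7 hearts, none of the resident macrophage genes passed an adjusted p of 0.05 in limma, and 0.0262% of the 11431 genes tested did (3 genes). Of the 9 resident macrophage genes past the filter on low values, 3 were higher in MI mice at an unadjusted p under 0.05 (Cd163, Mrc1 and Gas6), where 29.5% of all tested genes were higher, and 0 were lower, where 9.85% were lower. These shares are 3370 and 1126 genes, and they depended on the scaling between hearts. After quantile normalization 1904 genes were higher and 2400 lower, after median log-ratio scaling 2171 and 2238, and without mitochondrial genes 2858 and 1641. In each of these settings 2 of the 9 were higher (Mrc1 and Gas6), 1 was lower (Timd4), and Cd163 lost both its call and its separation. Counted without a model, all MI hearts lay above all sham hearts for 4 of the 10 genes (Cd163, Mrc1, Gas6 and Vsig4), against 16.1% of tested genes, and below for 0 of the 10, against 9.0%. The median log2 fold change of the 9 was 0.28, which is 0.07 above the median gene. Vsig4 was below the filter, at least 1 FPKM in at least 3 hearts, and was not tested in limma.

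**Figure D1:**
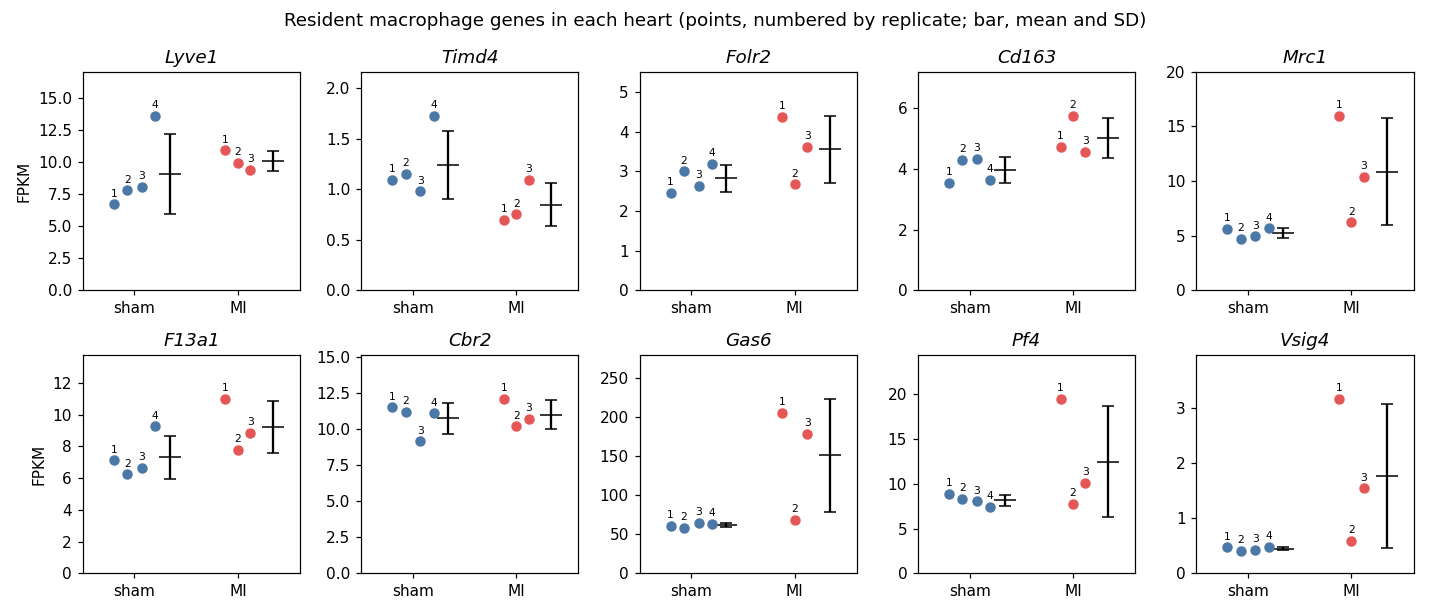
FPKM of each resident macrophage gene in the 4 sham-operated and the 3 MI hearts, every point 1 heart numbered by replicate, with the mean and SD beside the points and each vertical axis starting at 0. Gas6, Mrc1 and Vsig4 were high in MI replicates 1 and 3, whereas Lyve1 and Cbr2 of the MI hearts lay within the sham range or, in MI replicate 1 for Cbr2, just above it.

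Of the phagocytic receptors, Timd4 encodes a receptor for phosphatidylserine on dying cells and marks resident macrophages that are not replaced from blood. Its FPKM was 1.09, 1.15, 0.980 and 1.73 in sham replicates 1 to 4 and 0.697, 0.752 and 1.09 in MI replicates 1 to 3. Sham replicate 4 was the highest, MI replicates 1 and 2 were below all sham hearts, and MI replicate 3 fell within the sham range. In FPKM as deposited it was the only one of the 10 genes with a lower mean in MI mice, with a log2 fold change of -0.27 (SE 0.14, limma adjusted p = 0.171), or -0.48 relative to the median gene. The added 1 understates changes of so low a gene, and the log2 fold change was -0.49 with 0.1 added and -0.52 with voom on the recovered fragments (unadjusted p = 0.0852 and 0.0863 in limma). After scaling each heart by its median log-ratio it was -0.40, with an unadjusted p = 0.0226 and an adjusted p = 0.0998 in limma. It was -0.17 without sham replicate 4 (unadjusted p = 0.185 in limma). With sample weights it was -0.06, in a fit that rested in effect on MI replicate 3. The values rest on 50 to 75 fragments in sham hearts and 33 to 56 in MI hearts. The exact Poisson 95% interval, which covers counting error only, was 0.480 to 0.979 FPKM in MI replicate 1 and 1.36 to 2.17 in sham replicate 4.

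Mertk, a receptor tyrosine kinase for the uptake of dying cells that Gas6 engages, was 1.86, 1.75, 2.12 and 2.39 FPKM across the sham-operated mice and 5.67, 2.80 and 4.68 across the MI mice, with no overlap. Its log2 fold change was 0.79 (SE 0.19, limma adjusted p = 0.108). Timd4 and Mertk, both receptors for dying cells, thus differed in the sign of their mean change, and the difference between them was not tested.

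Vsig4 encodes the complement receptor of the immunoglobulin superfamily, which binds fragments of C3 on particles. Its FPKM was 0.475, 0.413, 0.430 and 0.477 in sham hearts, from 16 to 19 fragments, and 3.16, 0.594 and 1.54 in MI hearts, from 24 to 123 fragments. All MI hearts lay above all sham hearts, with MI replicate 1 at 7.05 times, replicate 2 at 1.32 times and replicate 3 at 3.44 times the sham mean. The difference of 0.82 on the log2(FPKM + 1) scale, which understates changes of low genes, had p = 0.0571 in the exact permutation test, the smallest it allows. The counting interval of MI replicate 2, 0.381 to 0.884 FPKM, still included the sham values. C3, whose product Vsig4 binds, was 22.3, 23.4, 27.6 and 37.8 FPKM in sham hearts and 238, 74.8 and 138 in MI hearts.

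The ratio of Vsig4 to Timd4, a pair chosen after the values were seen and so given without a test, was 0.436, 0.361, 0.438 and 0.276 in sham hearts and 4.54, 0.790 and 1.41 in MI hearts. It was above the sham range in each MI heart, MI replicate 2 included.

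Among the scavenger and endocytic receptors, Mrc1 encodes the mannose receptor CD206. It was 5.62, 4.73, 4.94 and 5.66 FPKM in sham hearts and 16.0, 6.21 and 10.4 in MI hearts. All MI hearts were above all sham hearts, MI replicate 2 by the least, at 1.18 times the sham mean against 3.06 and 1.99 times in replicates 1 and 3. The log2 fold change was 0.85 (SE 0.26, limma adjusted p = 0.108), or 0.64 relative to the median gene. Without MI replicate 1 it was 0.54. Mrc2, which encodes a related receptor for collagen found on fibroblasts, was 4.29 to 4.71 FPKM in sham hearts and 29.7, 5.03 and 28.4 in MI hearts.

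Cd163 encodes the scavenger receptor for complexes of haemoglobin and haptoglobin. Its FPKM was 3.53, 4.30, 4.34 and 3.64 in sham hearts and 4.73, 5.76 and 4.57 in MI hearts. The groups did not overlap, and here MI replicate 2 was the highest of the MI hearts, at 1.46 times the sham mean against 1.20 and 1.16 times. The log2 fold change was 0.28 (SE 0.11, limma adjusted p = 0.118), of which 0.07 remained relative to the median gene and 0.00 after quantile normalization. Partners of this receptor moved by far more in MI replicates 1 and 3: Hp (haptoglobin) was 0.0718 to 0.358 FPKM in sham hearts and 72.8, 0.428 and 82.5 in MI hearts, and Hmox1, the haem-degrading oxygenase, was 3.92 to 4.85 in sham hearts and 39.5, 4.94 and 27.2 in MI hearts.

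Lyve1 encodes a hyaluronan receptor. It was 6.69, 7.78, 8.04 and 13.6 FPKM in sham hearts and 10.9, 9.90 and 9.39 in MI hearts. All MI hearts fell inside the sham range because sham replicate 4 was high, and the log2 fold change was 0.18 (SE 0.22, limma adjusted p = 0.513), turning to -0.07 after quantile normalization and -0.06 after median log-ratio scaling. Without sham replicate 4 it was 0.38, with the MI hearts above the other sham hearts (unadjusted p = 0.0174, adjusted p = 0.207 in limma), and without sham replicate 1 it was 0.07. Cd44, another hyaluronan receptor, found on leukocytes and many other cells, was 0.770 to 0.991 FPKM in sham hearts and 6.47, 1.11 and 3.55 in MI hearts. Lymphatic endothelium also expresses Lyve1. Of the 5 lymphatic genes tested, 4 were higher in MI mice at an unadjusted p under 0.05 in limma, against 29.5% of all tested genes. Ccl21a was among them (18.0 to 22.2 FPKM in sham hearts and 74.6, 31.2 and 58.8 in MI hearts). Prox1, the defining transcription factor of lymphatic endothelium, which cardiomyocytes also express, was lower (5.13 to 6.02 and 2.97, 4.66 and 3.17 FPKM). The summed FPKM of the 6 lymphatic genes was 29.2 to 33.5 in sham hearts and 44.1 to 109 in MI hearts, no lymphatic gene was at 0 in all hearts, and the part of these cells in the Lyve1 values was not tested.

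Folr2 encodes folate receptor beta. It was 2.46, 3.00, 2.63 and 3.19 FPKM in sham hearts and 4.37, 2.67 and 3.62 in MI hearts. MI replicates 1 and 3 were above all sham hearts and MI replicate 2 was within them, and the log2 fold change was 0.24 (SE 0.15, limma adjusted p = 0.231), turning to -0.03 after quantile normalization, and 0.11 without MI replicate 1. Folr2 shares 975 exon bases with Gm10602 on the opposite strand, which was listed at 0.404 to 0.667 FPKM, and no source used here says whether counting used the strand, so the 2 cannot be fully separated. Stab1, a further scavenger receptor of resident macrophages, was 6.78 to 7.38 FPKM in sham hearts and 19.4, 7.07 and 17.9 in MI hearts.

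Among the secreted products, Gas6 was 60.8, 58.6, 65.1 and 63.6 FPKM in sham hearts and 206, 68.7 and 179 in MI hearts. All MI hearts were above all sham hearts, at 3.33, 1.11 and 2.88 times the sham mean. The log2 fold change was the highest of the 9 tested genes at 1.13 (SE 0.35, limma adjusted p = 0.108), or 0.92 relative to the median gene. Of its receptors, Axl was 10.1 to 11.3 FPKM in sham hearts and 30.8, 12.8 and 32.1 in MI hearts, and Tyro3 was 0.217 to 0.325 and 1.98, 0.287 and 1.74. All 7 fibroblast genes were also higher in MI mice at an unadjusted p under 0.05 in limma with no overlap. Of all tested genes 29.5% were higher at that p, and 16.1% had all MI hearts above all sham hearts. The summed FPKM of the fibroblast genes was 145 to 171 in sham hearts and 2360, 260 and 1860 in MI hearts, and their part in the Gas6 values was not tested.

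Pf4 encodes the chemokine platelet factor 4. It was 8.89, 8.35, 8.06 and 7.44 FPKM in sham hearts and 19.5, 7.77 and 10.1 in MI hearts. MI replicates 1 and 3 were above all sham hearts and replicate 2 was within their range, and the log2 fold change was 0.46 (SE 0.27, limma adjusted p = 0.212). Without MI replicate 1 it was 0.11, or -0.03 relative to the median gene. Platelet and megakaryocyte genes were near the bottom of the scale: 8 of 9 were below 1 FPKM in every heart, and their summed FPKM was 1.51 to 3.69 in sham hearts and 2.28 to 5.67 in MI hearts. Ppbp, which encodes the other abundant platelet chemokine, was 0.864, 1.15, 1.93 and 1.29 FPKM in sham hearts and 3.09, 1.63 and 0.860 in MI hearts.

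F13a1 encodes the A subunit of coagulation factor XIII, which cross-links fibrin. It was 7.13, 6.24, 6.64 and 9.27 FPKM in sham hearts and 11.0, 7.79 and 8.84 in MI hearts. The ranges overlapped, since sham replicate 4 was above MI replicates 2 and 3, and the log2 fold change was 0.30 (SE 0.16, limma adjusted p = 0.186). Without sham replicate 4 it was 0.40 (unadjusted p = 0.0309, adjusted p = 0.207 in limma), and without MI replicate 1 it was 0.17. F13b, the gene of the carrier subunit, which liver makes, was at 0 in every heart but MI replicate 1, where it was at 0.0525 FPKM. Sham replicate 4 was the highest sham heart for F13a1, Lyve1, Timd4 and Folr2, and by a small margin for Mrc1 and Vsig4, while for Pf4 it was the lowest.

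Cbr2, which encodes the enzyme carbonyl reductase 2, had the mean change nearest to 0 of the 10 genes in FPKM as deposited. It was 11.5, 11.2, 9.14 and 11.1 FPKM in sham hearts and 12.1, 10.2 and 10.7 in MI hearts. The ranges overlapped, each MI heart was within 0.954 to 1.13 times the sham mean, and the log2 fold change was 0.04 (SE 0.11, limma adjusted p = 0.806), turning to -0.21 after quantile normalization or median log-ratio scaling, and to -0.03 without sham replicate 3 or without MI replicate 1.

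Without MI replicate 2, the median gene was 0.33 higher in MI mice, and at an adjusted p under 0.05 limma called 57.0% of tested genes higher and 14.7% lower. Of the 9 resident macrophage genes, 5 were then higher and 0 lower. MI replicate 2 was left out because its values lay near those of the sham-operated mice, so these p-values are conditional on that choice, rest on 2 MI hearts and are given as a description. Gas6 was higher by 1.62 (SE 0.08, limma adjusted p = 7.93e-06) and Mrc1 by 1.17 (SE 0.16, limma adjusted p = 0.000532), both well beyond the median gene. Pf4 (0.72, limma adjusted p = 0.0220), F13a1 (0.40, limma adjusted p = 0.0497) and Folr2 (0.39, limma adjusted p = 0.0121) also passed, the last 2 by little more than the median gene moved. Cd163 (0.20), Lyve1 (0.19), Cbr2 (0.08) and Timd4 (-0.24) did not, with limma adjusted p from 0.0824 to 0.499. Each of these 4 values lies below that of the median gene. Without MI replicate 1, Mrc1 alone of the 9 kept an unadjusted p under 0.05 in limma, where 1049 of the 11431 tested genes were higher and 563 lower. Gas6 (0.83) and Cd163 (0.31) had unadjusted p = 0.0511 and 0.0508 in that limma fit.

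**Figure D2:**
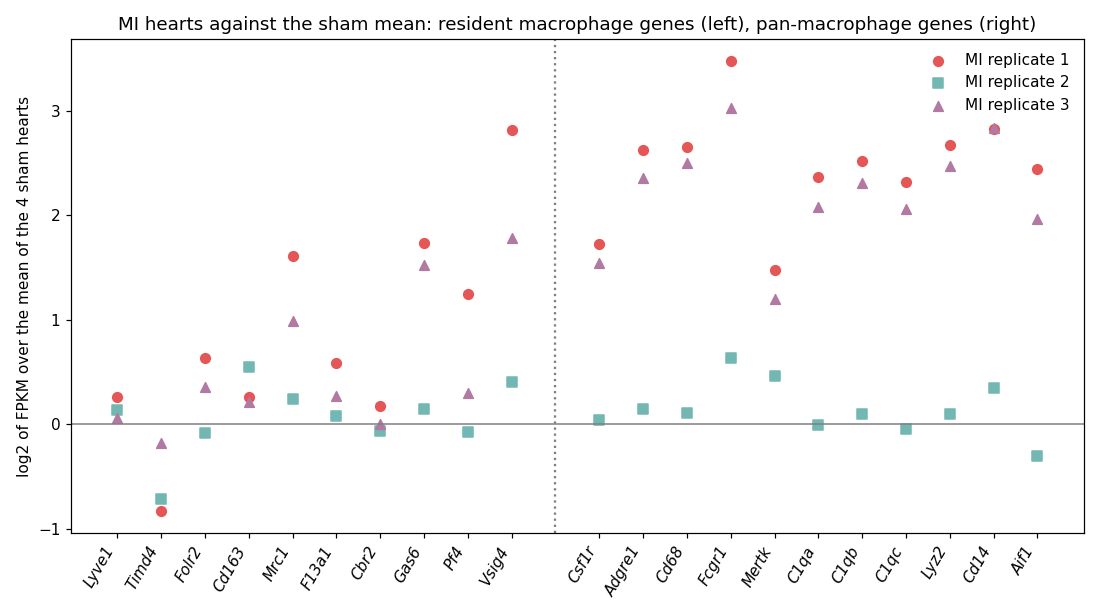
Log2 of the FPKM in each MI heart over the mean of the 4 sham hearts, for the 10 resident macrophage genes on the left and 11 pan-macrophage genes on the right, with a symbol for each MI replicate and a line at 0, the sham mean. In MI replicates 1 and 3 all pan-macrophage genes drawn were above the line, the resident genes ranged from Timd4 below it to Vsig4 near the pan-macrophage genes, and in MI replicate 2 most genes of both sets lay close to the line.

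The resident genes were next set against the macrophage content of each heart, as far as pan-macrophage genes measure it. All 11 tested genes of the pan-macrophage list were higher in MI mice at an unadjusted p under 0.05 in limma, against 29.5% of all tested genes. Their median log2 fold change was 1.51, against 0.21 for all tested genes. Fcgr1 is among the 11 and passed the filter only through the MI hearts, so that it had to be higher, and its call adds nothing to this count. Csf1r, the receptor on which macrophages depend for survival, was 8.52, 7.01, 6.73 and 7.46 FPKM in sham hearts and 24.5, 7.68 and 21.6 in MI hearts. The pan-macrophage level was 1.55 higher in MI mice, with no overlap and p = 0.0571 in the exact permutation test.

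Relative to the pan-macrophage level, on the scale of log2(FPKM + 0.1), all MI hearts were below all sham hearts for 3 of the 10 genes, Timd4, Cbr2 and Pf4 (each p = 0.0571, exact permutation test), and above for 0. Over all genes tested, 52.5% were below in this way and 1.02% above, and 3 of 10 is a smaller share than the first of these. Against Csf1r alone 2 of the 10 genes were below, since Pf4 changed by -0.61 with overlap (p = 0.114, exact permutation test). The share of all genes below in this way against Csf1r alone was not computed, so this count has no share to be read against. Without MI replicate 2, 9 of the 10 genes were below the pan-macrophage level in this way, all but Vsig4, against 94.6% of all genes tested.

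Timd4 had the lowest mean relative level in MI mice, though Vsig4 was lower in MI replicate 2. It was -5.46, -3.18 and -4.66 in replicates 1 to 3 against -2.62, -2.53, -2.46 and -1.97 in sham hearts, a difference of -2.04. Cbr2 had nearly the same relative level in all sham hearts, 0.67, 0.65, 0.64 and 0.66, and -1.53, 0.43 and -1.47 in MI hearts. For Pf4 the values were 0.30, 0.23, 0.46 and 0.08 in sham hearts and -0.85, 0.03 and -1.56 in MI hearts. In all 3 genes MI replicate 2 was the MI heart nearest to the sham hearts.

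For Lyve1, Folr2, Cd163, F13a1, Mrc1 and Gas6 the mean relative level changed in MI mice by -1.35, -1.25, -1.21, -1.22, -0.61 and -0.41, with p from 0.114 to 0.286 in the exact permutation test, and MI replicate 2 lay within the sham range in each, or just above it for Cd163. For Gas6 the change was 0.04 when Csf1r alone stood for macrophage content. The relative level of Vsig4 was -3.67, -3.81, -3.49 and -3.63 in sham hearts and -3.43, -3.47 and -4.20 in MI hearts, a difference of -0.05 (p = 0.914, exact permutation test), with alternatives from -0.54 (pseudocount of 1, p = 0.229 in the exact permutation test) to 0.40 (against Csf1r alone), and 0.20 without MI replicate 3. MI replicates 1 and 2 were above its sham range and replicate 3 below it.

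**Figure D3:**
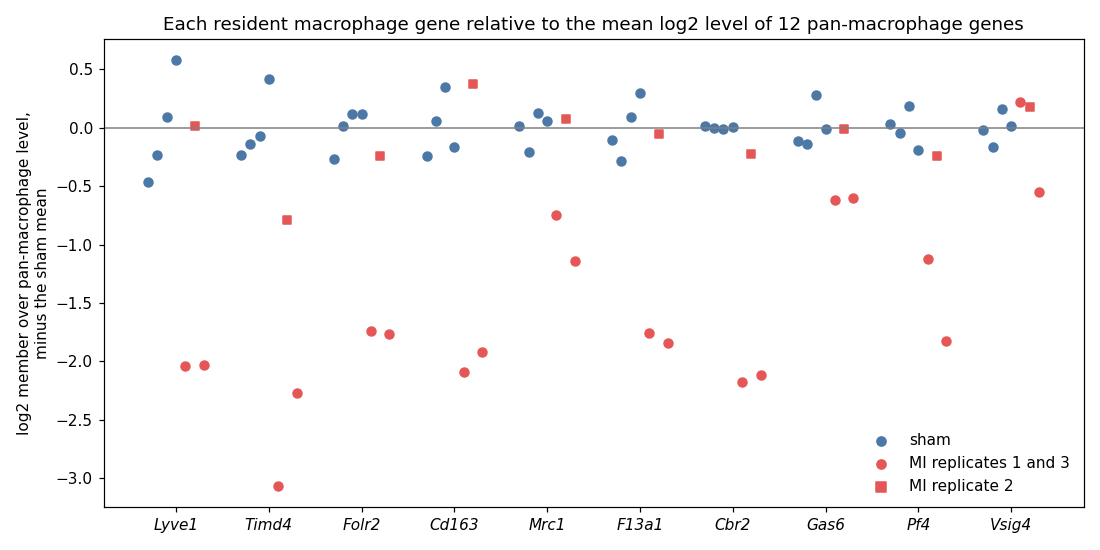
Level of each resident macrophage gene relative to the mean log2 level of 12 pan-macrophage genes in the same heart, drawn as the difference from its sham mean, with blue circles for sham hearts, red circles for MI replicates 1 and 3 and red squares for MI replicate 2. MI replicates 1 and 3 lay below the sham hearts for every gene but Vsig4, from Timd4 as the lowest to Gas6 as the nearest, and the 4 blue points of Cbr2 nearly coincide.

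Other genes named as resident macrophage markers gave a wider picture. Of 16 such genes, 10 were tested, and 8 were higher and 1 lower at an unadjusted p under 0.05 in limma (29.5% and 9.85% of all tested genes), with a median log2 fold change of 0.87, 0.66 above the median gene. Colec12, a scavenger receptor of the collectin family, was 1.23 to 1.36 FPKM in sham hearts and 4.37, 1.5 and 4.12 in MI hearts. Igf1, a growth factor that macrophages and fibroblasts secrete, was 0.937 to 1.28 and 10.6, 1.40 and 8.02. Mgl2, a galactose-type lectin, was the one that was lower, from 2.99, 3.10, 2.38 and 2.75 FPKM in sham hearts to 1.37, 2.00 and 1.73 in MI hearts, with no overlap (log2 fold change -0.50, SE 0.12, limma adjusted p = 0.108). Clec10a, which encodes a lectin closely related to that of Mgl2, was 0.249 to 0.365 FPKM in sham hearts and 2.04, 0.463 and 2.29 in MI hearts, and reads shared between these similar genes may have been split between them.

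Genes of monocytes and recruited macrophages were mostly below the filter in sham hearts. Of 12, 3 were tested, and all MI hearts were above all sham hearts for 8 of the 12, against 16.1% of tested genes. Most of the 8 were below the filter and so not among the genes behind that share. Among the 8 were Ccr2, the chemokine receptor that brings monocytes into tissue (0.0736 to 0.183 FPKM in sham hearts and 1.69, 0.297 and 1.08 in MI hearts), and Plac8 (0.0173 to 0.163 and 9.11, 0.377 and 4.50). Trem2, a lipid receptor of phagocytes, was 0.255 to 0.335 and 6.58, 0.686 and 4.21. For these 3 genes MI replicate 2 was at 2.78, 5.18 and 2.33 times the sham mean. For the other 4 of the 12, Thbs1, Fabp5, Chil3 and Msr1, it was below the sham mean, at 0.775, 0.879, 0.732 and 0.877 times. The summed FPKM of the 12 genes was 12.2 to 14.5 in sham hearts and 138, 13.7 and 111 in MI hearts, and neutrophil genes summed to 0.355 to 1.33 and to 17.7, 0.503 and 7.99. The part of recruited cells in the levels of the 10 resident genes was not tested.

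Of 23 partners and relatives of the 10 genes (ligands, receptors, subunits and paralogs), 9 were tested, of which 8 were higher and 0 lower in MI mice at an unadjusted p under 0.05 in limma (29.5% and 9.85% of all tested genes), and for 10 of the 23 all MI hearts were above all sham hearts (16.1% of tested genes). Some of these 10 were below the filter and so not among the genes behind the last share. Cd44, 1 of the 8, passed the filter only through the MI hearts and had to be higher. The median log2 fold change of the partners and relatives was 1.09 over the 9 tested, while that of the 9 tested resident macrophage genes was 0.28 and that of all genes 0.21. The lists were not tested against each other. Of the endothelial genes 0 of 5 passed in either direction, and of the cardiomyocyte genes 0 of 6 were higher and 3 lower.

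**Figure D4:**
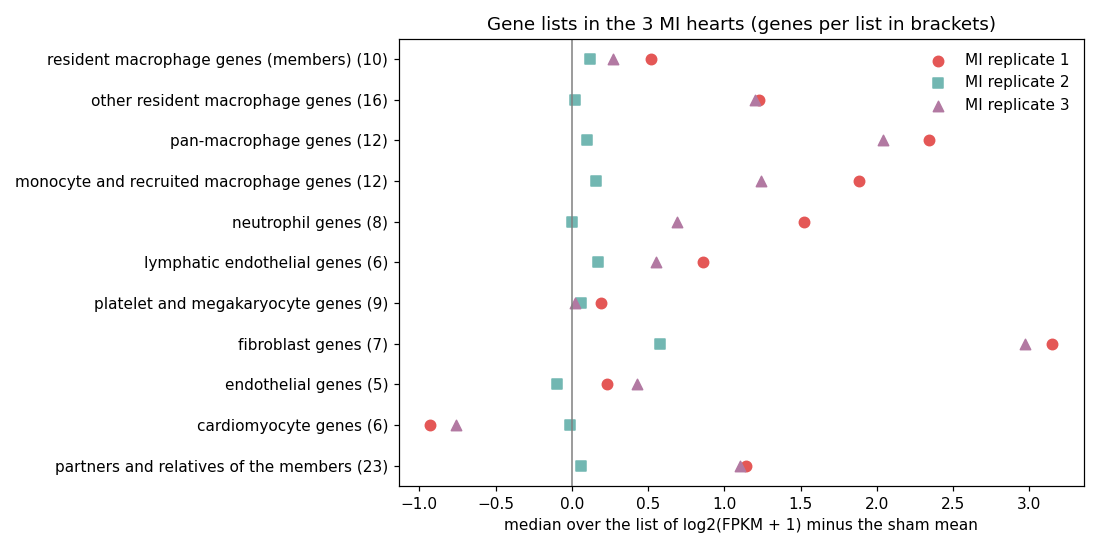
Median over each gene list of log2(FPKM + 1) minus the sham mean, in each of the 3 MI hearts, with the number of genes in brackets and a line at 0, the sham mean. The 10 resident macrophage genes were at 0.52, 0.12 and 0.27 in MI replicates 1 to 3, the pan-macrophage genes at 2.34, 0.10 and 2.04 and the fibroblast genes at 3.15, 0.58 and 2.97.

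On GRCm38 with the GENCODE M21 annotation the 10 genes are all protein-coding. The plus strand carries Timd4 (chr11:46810800-46844332), Cd163 (chr6:124304656-124330527), Mrc1 (chr2:14229392-14332057) and Pf4 (chr5:90772435-90773383). The minus strand carries Lyve1 (chr7:110850607-110863239), Folr2 (chr7:101839988-101857194), F13a1 (chr13:36867178-37050244), Cbr2 (chr11:120729489-120732114), Gas6 (chr8:13465374-13494490) and Vsig4 (chrX:96247203-96293438). The lengths behind the deposited FPKM values equalled the summed exon length of this annotation for Timd4 (2173 bases) and Gas6 (2548 bases) and were longer for the other 8, for example 2933 against 1546 bases for Folr2. A longer length lowers the FPKM of a gene by the same factor in every heart, which bears on the order of the genes, on the filter and, through the 1 added before the log2, on the size of a log2 fold change.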

How the data were processed

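Myocardial RNA of 4 sham-operated and 3 MI mice was analysed, grouped by the treatment label of each sample. FPKM values of 56980 genes were deposited by the authors, and 0 columns of values were left unused. The unit was inferred from the values. The submitters' processing notes name CASAVA 1.8, HISAT2, SAMtools 1.3.1, edgeR and mm10. The counting program, the annotation and the use of strand are not given in the sources used here. Symbols were matched for 52073 identifiers (91.4%), and positions came from GENCODE M21. For 30501 of the 30504 genes above 0, the values were whole multiples of the worth of 1 fragment within 0.05 of a fragment, which gave depths and fragment numbers. This step was tested on simulated data.

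From the deposited FPKM values log2(FPKM + 1) was computed, not rescaled between mice. Genes with at least 1 FPKM in at least 3 mice (11431) were tested in limma 3.58.1 (R 4.3.3; lmFit, eBayes with trend) without covariates, with Benjamini-Hochberg adjustment over these genes. The fit was tested on simulated data. Single values were tested by exact two-sided permutation over the 35 splits of the mice. A level relative to macrophage content is log2(FPKM + 0.1) of the gene minus the mean of that value over 12 pan-macrophage genes, among them Csf1r, Adgre1, Cd68, Fcgr1, Mertk, C1qa, C1qb, C1qc, Lyz2, Cd14 and Aif1. 1 gene of this list is not reported here. For each tested gene, the 3 genes with the smallest root mean square difference in profile were also named. Intervals on fragment numbers are exact Poisson intervals at 95%. The remaining steps ran in SciPy 1.17.1, NumPy 2.4.6, pandas 2.3.3 and matplotlib 3.10.9 under Python 3.11.15.

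The 10 genes and all gene lists were chosen with earlier results of these data known, so their counts are descriptions. The alternatives were other pseudocounts, filters and scalings, leaving out mitochondrial genes, limma with sample weights or no trend, voom on recovered fragments, a block for replicate number, other measures of macrophage content, and each mouse left out.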

Additional observations from a re-analysis of the deposited data

Results flagged for a closer look

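In 3 of the 31 sets of 4 sham values examined, 1 heart stood far from the others, where about 1 set in 20, or 1.55 of 31, would be flagged by chance. The value is the gap between that heart and its nearest neighbour as a share of the range of all 4. For Cbr2 the gap was 0.855, with sham replicate 3 low at 9.14 FPKM. For the summed FPKM of the 8 neutrophil genes it was 0.871, with sham replicate 2 high at 1.33, and for that of the 6 lymphatic endothelial genes it was 0.881, with sham replicate 3 low at 29.2.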

How the results depend on the processing

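Of 164 alternative values for single resident macrophage genes, 8 changed sign: Lyve1 (-0.06 with median log-ratio scaling, -0.07 with quantile normalization), Folr2 (-0.03 with quantile normalization) and Cbr2 (-0.21 with each of these, -0.10 without mitochondrial genes, and -0.03 to 0.08 with single hearts left out). The median gene moved with the scaling, to 0.42 as TPM, 0.00 with median log-ratio scaling, 0.11 without mitochondrial genes and -0.03 with quantile normalization. Of 100 alternative values relative to macrophage content, 3 changed sign: Gas6 (0.04) and Vsig4 (0.40) against Csf1r alone, and Vsig4 without MI replicate 3 (range with single hearts left out -0.18 to 0.20). Timd4 was lower at an unadjusted p under 0.05 in limma with median log-ratio scaling, quantile normalization and without mitochondrial genes, 1 resident gene in each. Over all tested genes, 2238, 2400 and 1641 were lower in these settings.

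Sample weights in limma, whose estimation stopped short of its tolerance, brought 6 resident genes past an adjusted p of 0.05 and 6 past an unadjusted one, with 9952 of all genes past the adjusted p and 7666 higher and 2332 lower past the unadjusted one. With single hearts left out, resident genes past the adjusted p numbered 0 to 5, those higher past the unadjusted p 1 to 5 and those tested without overlap 3 to 5, the 5 reached without MI replicate 2 and, for the last, also without sham replicate 4, and the 1 without MI replicate 1. Those below relative to macrophage content numbered 3 to 9, the 9 without MI replicate 2. Over all genes these fits called 0 to 8195 past the adjusted p (8195 without MI replicate 2, 5 without MI replicate 1, 0 or 1 without any other heart), and 952 to 6722 higher and 535 to 1770 lower past the unadjusted one, where leaving out any sham heart gave 1900 to 1999 higher.

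Over all genes, those past the adjusted p (3 as reported) were 6 with a pseudocount of 0.1, 21 without a filter, 0 with a filter on the mean, 15 with median log-ratio scaling, 15 with quantile normalization and 11 without mitochondrial genes. At the unadjusted p, 6274 were higher without a filter, 560 lower as TPM, 2171 higher and 2238 lower with median log-ratio scaling, and 1904 higher and 2400 lower with quantile normalization. The cause was not tested. Vsig4 was low in FPKM and rests on few fragments, as does Timd4.

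Same-numbered hearts correlated at 0.074, -0.016 and -0.080 in their deviations from the group means. Differently numbered hearts ranged from -0.091 to 0.081. With 3 MI hearts, of which MI replicate 2 lay apart, these values cannot decide whether the replicate numbers pair the hearts. With a block for replicate number, which leaves sham replicate 4 without a partner, 0 genes passed the adjusted p, 1770 were higher and 562 lower at the unadjusted p, and 3 resident genes were higher, Mrc1, Gas6 and F13a1, the last in place of Cd163.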

Other observations

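The genes whose profiles over the 7 hearts were most like those of the resident macrophage genes were mostly not macrophage markers. The measure is the root mean square difference of log2(FPKM + 1), centred on the sham mean, and it is a description. Nearest to Timd4 were Mkks, which encodes a chaperonin-like protein (0.069), Mrpl53, a mitochondrial ribosomal protein (0.086), and Tubb4b-ps1, a tubulin pseudogene (0.10). Mkks was 6.27, 6.01, 6.03 and 7.82 FPKM in sham hearts and 5.01, 5.10 and 5.51 in MI hearts. Nearest to Gas6 were Clip3 (0.048), Pgrmc1 (0.053) and Mmp3, a matrix metalloproteinase (0.053). Mmp3 was 0.842, 0.794, 1.06 and 0.945 FPKM in sham hearts and 5.23, 1.03 and 4.02 in MI hearts. Nearest to Mrc1 were Ptprj, a receptor tyrosine phosphatase (0.062), Tkt, the transketolase of the pentose phosphate pathway (0.089), and Fzd7, a Wnt receptor (0.090).

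For the other 6 genes tested, the nearest were Hps4 for Folr2 (0.037), Mgmt for Cbr2 (0.033), Echdc1 for Cd163 (0.058), Irak2 for F13a1 (0.071), Ywhaq for Pf4 (0.091) and Limd1 for Lyve1 (0.098). Limd1 shared the high value of sham replicate 4, at 3.76, 4.18, 4.02 and 8.02 FPKM in sham hearts and 5.33, 4.87 and 5.55 in MI hearts. No profile of a resident macrophage gene was among the 3 nearest of another. With 11431 genes to choose from, this says little on whether the resident genes move together.

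Ratios between resident macrophage genes, chosen after the values were seen, are given without a test. Mrc1 over Lyve1 was 0.841, 0.609, 0.614 and 0.415 in sham hearts and 1.48, 0.627 and 1.11 in MI hearts. Lyve1 over Folr2 was 2.72, 2.59, 3.06 and 4.28 in sham hearts and 2.49, 3.71 and 2.59 in MI hearts.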
